A study of Microtus ochrogaster with 40 samples.

Results

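The opioid receptors described here are Oprk1 (kappa receptor, ENSMOCG00000021359), Oprm1 (mu receptor, ENSMOCG00000009671) and Oprd1 (delta receptor, ENSMOCG00000018388), 3 of the 19130 genes counted. They were chosen by name, and each was found once among the deposited gene names. Their transcripts were counted in single nuclei of the nucleus accumbens, a part of the ventral striatum, of 40 prairie voles (Microtus ochrogaster), a small rodent known for pair bonding. Each animal had been housed for 16 days with an unfamiliar partner, either of the opposite sex (mate) or of the same sex (peer), and gave 1 library. The groups were 11 female mates, 8 female peers, 11 male mates and 10 male peers. The labels give no age, no treatment other than pairing, and no animal without a partner, so each difference by pairing is one between partner types.

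Opioid receptors are receptors on the cell surface that couple to inhibitory G proteins, lower cyclic AMP, open potassium channels and close calcium channels. The kappa receptor responds mainly to dynorphins, which are cut from the product of Pdyn, while enkephalins, from Penk, act at the mu and delta receptors. In the accumbens most neurons are medium spiny neurons, which carry either the D1 or the D2 dopamine receptor; as background, D1 neurons make dynorphin and D2 neurons make enkephalin. In prairie voles kappa and mu receptor signalling in the striatum has been studied for its part in bonding and in aggression towards strangers.

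After filtering, 178387 nuclei remained, with 1767 to 7666 per library (median 4549) and a median of 654 to 2172 unique molecular identifiers (UMIs, each standing for 1 captured RNA molecule) per nucleus. Nuclei were clustered without the receptors, and clusters were named from marker lists on which the receptors do not appear, so that no class below was made with them. The D1-like class (30907 nuclei) held DRD1A at 953 ± 98.2 counts per 1000000 UMIs (CPM; SD, n = 40 animals) and DRD2 at 5.69 ± 2.59 CPM. The D2-like class (28498 nuclei) held DRD2 at 364 ± 68.8 CPM and DRD1A at 20.6 ± 7.62 CPM. The third spiny class (15748 nuclei), called eccentric-like, joined a cluster led by Foxp2 and Otof (10478 nuclei) and one led by Col14a1 and Shisa8 (5270 nuclei). This class held DRD1A at 817 ± 104 CPM and Penk at 3397 ± 1238 CPM. Male mate 2 stood apart: all 6375 barcodes below 500 UMIs came from it, its median depth was the lowest, and 44.9% of its nuclei were glutamate neuron-like (median over animals 18.8%), so receptor results are also given without it where it changed them. All 780 pairs of libraries shared some cell barcodes, at most 2.22% of the smaller library, which was not examined further.

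Oprk1, the kappa receptor, was a transcript of medium spiny neurons. Its mean level was highest in D1-like nuclei, 232 ± 41.0 CPM (SD, n = 40), followed by D2-like nuclei at 163 ± 34.8 CPM and eccentric-like nuclei at 121 ± 35.5 CPM. The 3 spiny classes held 88.4% of all Oprk1 UMIs, against 50.3% of all UMIs. Over the animals D1-like levels ran from 162 to 304 CPM and D2-like levels from 108 to 238 CPM, and although these ranges overlap, D1-like nuclei were the higher in every one of the 40 animals. An unnamed cluster of shallow nuclei led by the spiny markers Gng7 and Ppp1r1b (8612 nuclei, median 756 UMIs; 19.8% of them from male mate 2) held 149 ± 46.2 CPM.

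Other classes held far less Oprk1. Glutamate neuron-like nuclei were at 17.9 ± 8.28 CPM (n = 40), oligodendrocyte precursor-like nuclei at 25.1 ± 16.4 CPM, astrocyte-like nuclei at 5.91 ± 3.96 CPM (n = 39) and mature oligodendrocyte-like nuclei at 6.76 ± 11.8 CPM. Cholinergic interneuron-like nuclei were at 6.76 ± 12.1 CPM over the 26 animals with at least 20 such nuclei. Their mean paired difference from mature oligodendrocyte-like nuclei did not pass (sign-flip permutation test, adjusted p 0.854). In the order of median levels, each step from D1-like to D2-like, to the unnamed shallow cluster and to eccentric-like nuclei passed this test. The adjusted p were 7.29e-05, 0.0404 and 0.00836 over 51 steps of the 3 receptors. The test asks whether the mean paired difference is 0, not whether it is larger than the spread between animals. The step from the D2-like class to the shallow cluster was small, however: D2-like nuclei were the higher in 21 of 40 animals, with a mean difference of 0.16 ± 0.38 (SD) in log2(CPM + 10).

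Oprm1, the mu receptor and main target of morphine, had another order. It was highest in eccentric-like nuclei (279 ± 87.8 CPM, n = 40) and cholinergic interneuron-like nuclei (256 ± 101 CPM, n = 26), which express Chat and release acetylcholine. The difference between these 2 classes did not pass the test (adjusted p 0.726). The mean paired difference was 0.11 ± 0.92 (SD) in log2(CPM + 10), and eccentric-like nuclei were the higher in 14 of 26 animals. D2-like nuclei followed at 180 ± 45.6 CPM and D1-like nuclei at 141 ± 35.9 CPM, D2-like being the higher in 39 of 40 animals (adjusted p 7.29e-05).

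Most other classes held less Oprm1. The unnamed shallow spiny cluster held 119 ± 48.8 CPM, and an unnamed interneuron cluster led by Vip, Crabp1 and Kit held 80.6 ± 45.1 CPM, both below the class before them in the order (adjusted p 0.00223 and 0.00289). The latter level is an average of unlike nuclei. In the finer clustering, at a resolution of 2, a cluster led by Vip (947 nuclei) held 176 ± 74.9 CPM of Oprm1 (n = 25), near the D2-like level, and one led by Crabp1, Trh and Kit (2779 nuclei) held 34.7 ± 28.1 CPM (n = 39). Glutamate neuron-like nuclei were at 27.3 ± 13.1 CPM and astrocyte-like nuclei at 4.92 ± 6.75 CPM. The 3 spiny classes together held 83.7% of Oprm1 UMIs.

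Oprd1, the delta receptor, was highest in 2 of the interneuron groups, and D2-like nuclei held the largest part of its UMIs. Cholinergic interneuron-like nuclei had the highest level, 231 ± 91.4 CPM (n = 26), and held 6.70% of all Oprd1 UMIs with 0.789% of all UMIs. An unnamed cluster led by Kcnc2, Sst and Pvalb, genes of fast-spiking and somatostatin interneurons, came next at 113 ± 32.9 CPM (n = 40). D2-like nuclei were at 65.5 ± 12.0 CPM and, being numerous, held 48.7% of Oprd1 UMIs. Each of these steps passed the sign-flip permutation test (adjusted p 7.29e-05 for both). The cholinergic level was above that of the Kcnc2, Sst and Pvalb cluster in 24 of 26 animals, and the latter was above D2-like in 37 of 40. The second step, 0.63 ± 0.69 (SD) in log2(CPM + 10), was smaller than its spread. Not all interneurons were high: the Vip, Crabp1 and Kit cluster was at 6.14 ± 6.52 CPM (n = 40) and held 0.620% of Oprd1 UMIs with 2.70% of all UMIs. Nuclei with Sst and Pvalb among their leading genes were not alike either. In the finer clustering a cluster led by Kcnc2 (3169 nuclei) held 126 ± 29.6 CPM of Oprd1 (n = 39). A shallower one led by Pvalb and Nefh (1723 nuclei, median 801 UMIs) held 27.0 ± 31.2 CPM (n = 31).

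D1-like and eccentric-like nuclei held little Oprd1. The D1-like level was 2.10 ± 1.57 CPM (0 to 7.05 CPM over the 40 animals, 156 UMIs in 30907 nuclei). The astrocyte-like level was 1.13 ± 2.38 CPM. D1-like nuclei were the higher in 29 of 39 animals, by 0.12 ± 0.32 (SD) in log2(CPM + 10). This step did not pass the threshold (sign-flip permutation test, unadjusted p 0.0206, adjusted p 0.0552). The adjustment also counted steps over only 1 or 2 animals, which could not pass, so the adjusted p does not decide this step. Eccentric-like nuclei were at 7.47 ± 4.71 CPM. Glutamate neuron-like nuclei held 21.7 ± 7.69 CPM and 20.6% of Oprd1 UMIs, and the smaller Sst, Npy and Nos1 interneuron class 20.4 ± 23.9 CPM (n = 31). The step between these 2 classes did not pass the test (adjusted p 0.0760). Levels of the 3 receptors are not compared with one another here, since UMI counts per gene also depend on how well each transcript is captured.

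**Figure D1:**
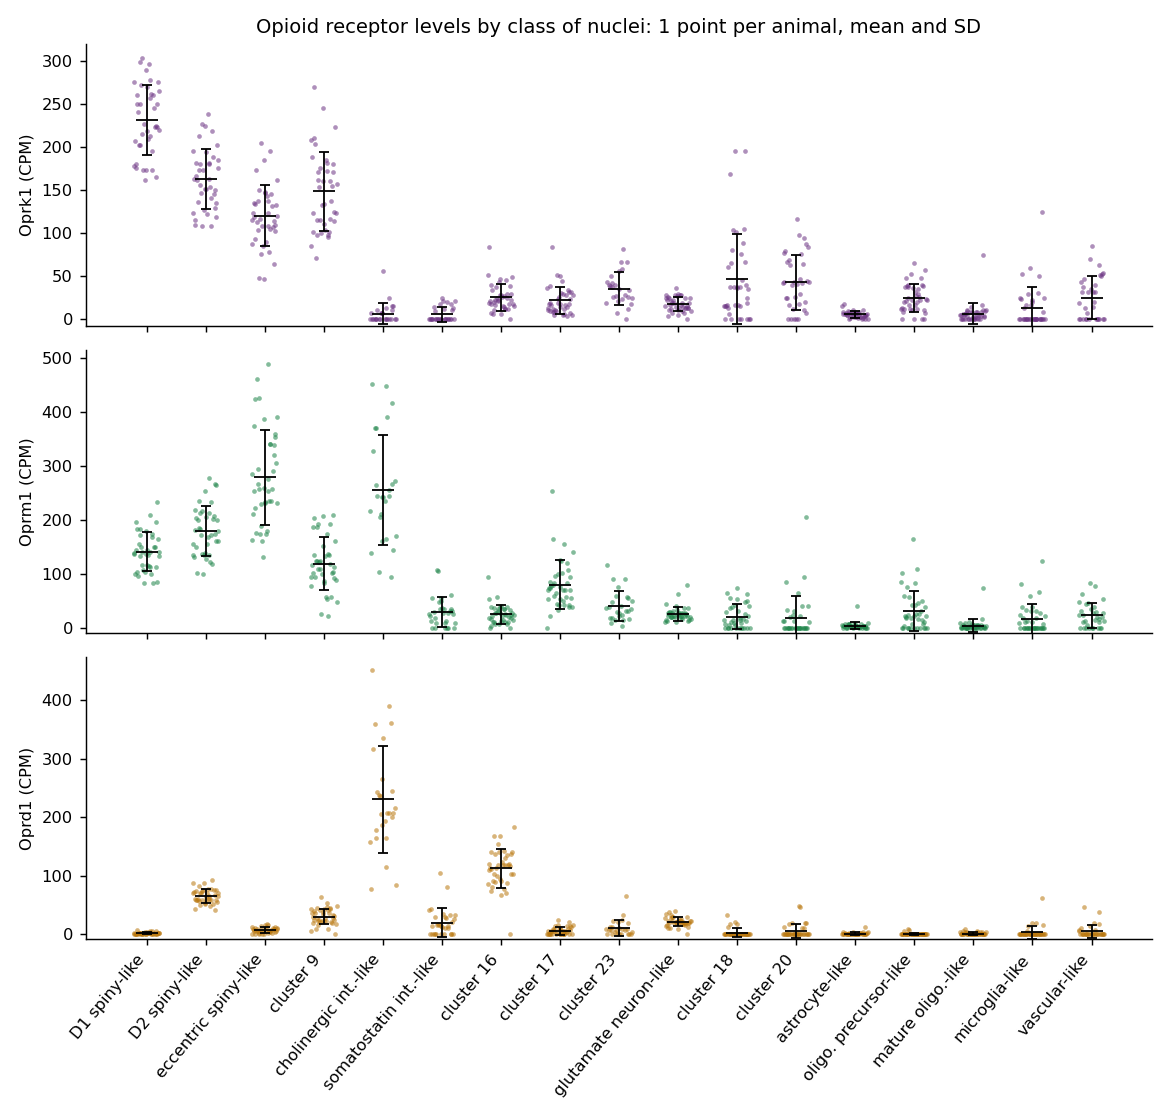
Level of each receptor (CPM, linear axis, 1 panel per receptor) in each class of nuclei; each point is 1 animal with at least 20 nuclei of the class, and bars show mean and SD over animals. Oprk1 was highest in D1-like nuclei (232 ± 41.0 CPM), Oprm1 in eccentric-like (279 ± 87.8 CPM) and cholinergic interneuron-like nuclei (256 ± 101 CPM), and Oprd1 in cholinergic interneuron-like nuclei (231 ± 91.4 CPM).

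The spiny classes were also compared within animals across all genes, to give the receptors' differences with an error from a common fit (edgeR's quasi-likelihood test on counts summed per animal and class, with the animal as a block and Benjamini-Hochberg adjustment over all genes tested). Oprk1 was 1.40-fold higher in D1-like than in D2-like nuclei (log2 difference 0.49, SE 0.025, edgeR adjusted p 1.63e-31). Oprm1 was 1.28-fold lower (log2 difference -0.36, SE 0.026, edgeR adjusted p 7.52e-22) and Oprd1 30.1-fold lower in D1-like nuclei (log2 difference -4.91, SE 0.080, edgeR adjusted p 5.59e-70). All 3 receptors were thus called, where 30.0% of 10239 genes were. The fold of Oprd1 rests on a D1-like level near the floor, at a median of 3 UMIs per animal. Its size is therefore less certain than its direction.

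Eccentric-like nuclei had less Oprk1 and more Oprm1 than either of the other spiny classes. Against D1-like nuclei Oprk1 was 1.82-fold lower (log2 difference -0.87, SE 0.050) and Oprm1 1.97-fold higher (0.98, SE 0.045), with edgeR adjusted p of 2.38e-25 and 1.18e-30. Oprd1 did not pass the filter on low counts in that comparison. Against D2-like nuclei Oprk1 was 1.31-fold lower (-0.39, SE 0.050), Oprm1 1.53-fold higher (0.61, SE 0.045) and Oprd1 8.25-fold lower (-3.04, SE 0.094), all called with edgeR adjusted p of 2.75e-10 or less. These counts of 2 and 3 receptors called stand beside 62.1% of 9643 genes and 60.3% of 9523 genes called in the same comparisons, so a call by itself does not set the receptors apart from other genes; the sizes and directions are what the comparison gives.

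Within the classes the receptors also differed between clusters, here described by class beginning with the D1-like nuclei. The D1-like cluster led by Col24a1 and Hcrtr2 held Oprk1 at 298 ± 51.1 CPM and Oprm1 at 91.5 ± 37.4 CPM (n = 40). The smaller D1-like cluster led by Dlk1 and Ush1c had the reverse arrangement, with Oprk1 at 127 ± 45.6 CPM and Oprm1 at 349 ± 89.4 CPM (n = 36). In this cluster the markers of any medium spiny neuron had a mean log2 difference from all other nuclei of -0.026, against 0.829 in the Col24a1-led one. Its D1-like name rests on the D1 markers. In all 36 animals with both clusters, Oprk1 was higher in the first and Oprm1 higher in the second; the ratios of the means were 2.38 for Oprk1 and 3.82 for Oprm1. This pair was picked out after its values were seen and is given as a description. In the finer clustering the Dlk1-led cluster (4294 nuclei) held Oprk1 at 148 ± 32.2 CPM and Oprm1 at 281 ± 78.6 CPM. The Col24a1-led one there held 300 ± 47.5 and 90.9 ± 39.7 CPM (n = 40 for both).

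The remaining D1-like clusters lay between them. The largest, led by Reln and Pdyn, held Oprk1 at 214 ± 44.2 CPM and Oprm1 at 147 ± 42.6 CPM (n = 40). A cluster led by Npas4 and Fosb, genes that respond quickly to activity, held Oprk1 at 154 ± 57.5 CPM and Oprm1 at 117 ± 47.6 CPM (n = 35). Oprd1 was at 2.32 ± 2.61 CPM or less in each of the 4 D1-like clusters, which leaves no D1-like cluster with a level like that of D2-like nuclei.

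The 2 D2-like clusters differed in all 3 receptors. The main one, led by Adora2a, Gpr6 and Penk, held Oprk1 at 186 ± 41.9 CPM, Oprm1 at 193 ± 52.3 CPM and Oprd1 at 80.1 ± 14.3 CPM (n = 40). The other, led by Fosb and Cpne7, held 90.0 ± 31.7, 133 ± 49.6 and 17.2 ± 11.1 CPM. Oprd1 was higher in the main cluster in 39 of 40 animals, by 1.82 ± 0.65 (SD) in log2(CPM + 10) (sign-flip permutation test, adjusted p 5.25e-05 over 21 steps between spiny clusters). Oprk1 and Oprm1 were higher there in 40 and 37 of 40 animals, which was not tested as these clusters are not neighbours in those orders.

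The finer clustering held 5 D2-like clusters, 2 of them with opposite orders of Oprk1 and Oprm1. A cluster whose leading genes included Npffr2 and Col24a1 held Oprk1 at 256 ± 41.3 CPM and Oprm1 at 135 ± 48.1 CPM. A cluster led by Nts, the neurotensin gene, held Oprk1 at 132 ± 32.6 CPM and Oprm1 at 247 ± 83.2 CPM. Both orders held in all 40 animals, with ratios of means of 1.94 for Oprk1 and 1.83 for Oprm1, again as a description of clusters chosen after their values were seen. A shallower cluster led by Adora2a and Gpr52 (4749 nuclei, median 959 UMIs) lay between them, with Oprk1 at 159 ± 56.0 CPM and Oprm1 at 167 ± 63.6 CPM (n = 39). A small cluster led by Fosb and Npas4 held Oprk1 at 90.6 ± 39.5 CPM, Oprm1 at 155 ± 61.2 CPM and Oprd1 at 36.8 ± 21.1 CPM (n = 37). Oprd1 was at 67.5 ± 27.0 CPM in the shallower cluster, 98.7 ± 24.0 CPM in the first, 68.6 ± 15.2 CPM in the second and 14.0 ± 11.0 CPM (n = 39) in the cluster led by Cpne7.

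The 2 eccentric-like clusters were both rich in Oprm1. They differed in the markers of any medium spiny neuron. The mean log2 difference of these markers from all other nuclei was 0.787 in the Foxp2-led cluster and below 0.18 in the Col14a1-led one. The cluster led by Foxp2 and Otof held Oprm1 at 270 ± 96.0 CPM and Oprk1 at 132 ± 40.8 CPM (n = 40), and the cluster led by Col14a1 and Shisa8 held Oprm1 at 310 ± 85.5 CPM and Oprk1 at 81.4 ± 34.7 CPM (n = 39). For Oprm1 the order over the 8 spiny clusters was Dlk1-led, Col14a1-led, Foxp2-led, Adora2a-led, Reln-led, Fosb and Cpne7-led, Npas4-led and Col24a1-led. The step from Dlk1-led to Col14a1-led held in 22 of 36 animals (sign-flip permutation test, adjusted p 0.00908). In the finer clustering these 2 were reversed, with the Col14a1-led cluster at 336 ± 96.3 CPM (n = 39) and the Dlk1-led one at 281 ± 78.6 CPM (n = 40). The steps from Reln-led to Fosb and Cpne7-led and on to Npas4-led did not pass the test (adjusted p 0.0706 and 0.221). For Oprk1 the steps from Npas4-led to Foxp2-led, from Foxp2-led to Dlk1-led and from Fosb and Cpne7-led to Col14a1-led did not (adjusted p 0.221, 0.239 and 0.155). Over these 8 clusters, which share their libraries, the means of Oprk1 and Oprm1 had a Pearson correlation of -0.56 and a Spearman correlation of -0.60, a description over few points.

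**Figure D2:**
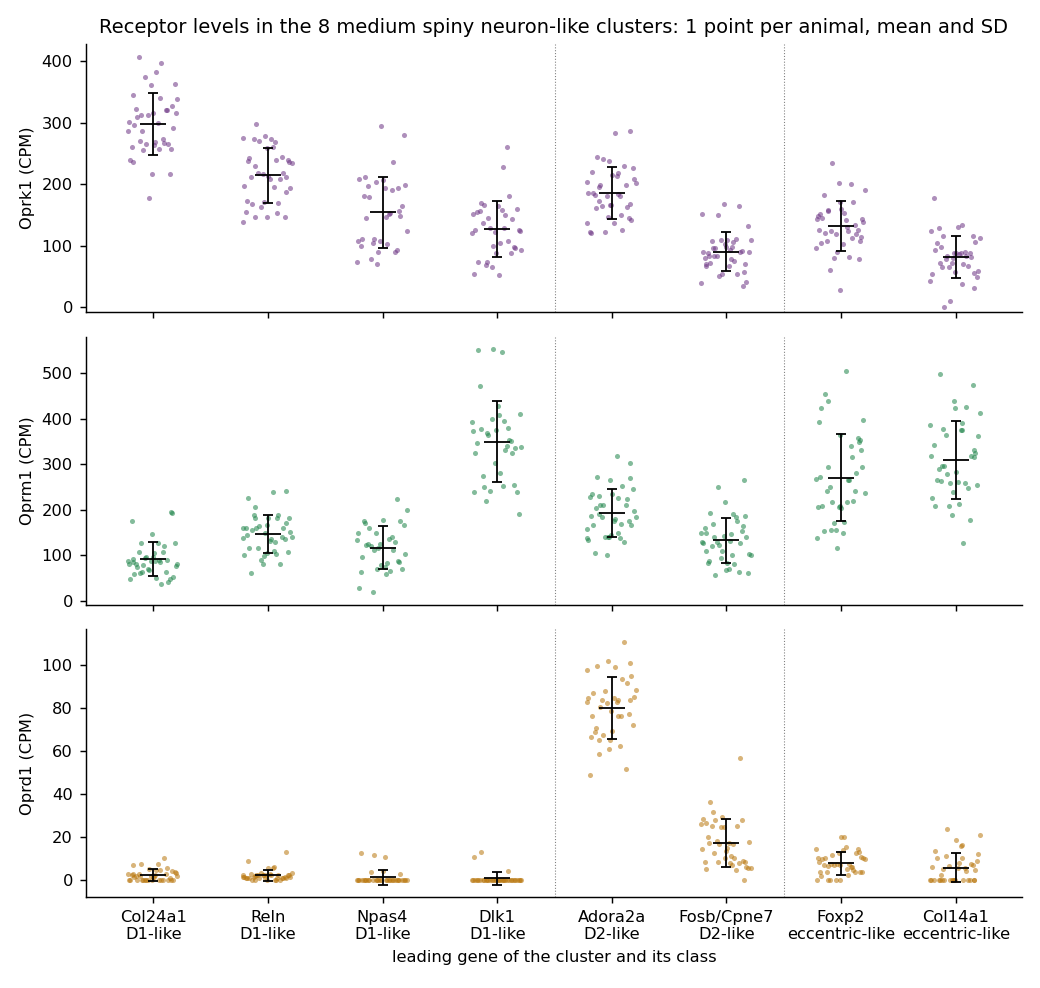
Level of each receptor (CPM, linear axis) in the 8 medium spiny neuron-like clusters, named by a leading gene and class; points are animals, and bars are mean and SD. The Col24a1-led D1-like cluster was highest in Oprk1 (298 ± 51.1 CPM) and lowest in Oprm1 (91.5 ± 37.4 CPM), while Oprd1 stood out in the Adora2a-led D2-like cluster (80.1 ± 14.3 CPM).

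Receptors also differed among the glutamate neuron-like clusters, which as a class were low. Oprk1 was at 62.1 ± 25.9 CPM (n = 39) in the cluster led by Nr4a2 and Slc26a4, but at 5.40 ± 4.08 CPM in the cluster led by Ndst4 and 4.60 ± 4.59 CPM in the cluster led by Rxfp2 and Col5a1. Oprm1 was at 52.1 ± 27.3 CPM in the Rxfp2-led cluster, against 13.8 ± 10.7 CPM in the Nr4a2-led one and 16.2 ± 12.3 CPM in the Ndst4-led one. Oprd1 was at 23.1 ± 9.69, 29.2 ± 12.2 and 25.8 ± 9.70 CPM in the Ndst4-led, Rxfp2-led and Nr4a2-led clusters. The largest of these clusters (10392 nuclei), led by Stmn1, Sncb and Cck and with mitochondrial transcripts among its leading genes, was lower in Oprd1, at 9.33 ± 5.65 CPM (n = 40), and held 13.7 ± 10.1 CPM of Oprk1 and 14.6 ± 10.6 CPM of Oprm1. The Col5a2-led cluster, at 66.0 ± 54.3 CPM of Oprm1 (n = 29), took 61.8% of its nuclei from male mate 2. Nuclei of tissue next to the accumbens cannot be told apart from accumbens nuclei here.

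Genes whose mean levels varied most like each receptor over the 27 clusters of at least 200 nuclei were found among 12166 genes by the Pearson correlation of log2(CPM + 10). For Oprk1 these were Adamts3 (0.93), Rem2 (0.92), Tmprss9 (0.90), Kcnip2 (0.89) and Meox2 (0.89). For Oprm1 they were Hs6st2 (0.89), Slc7a14 (0.88), Sv2c (0.88), Hrh1 (0.87) and Gpr27 (0.86), and for Oprd1 Lamtor1 (0.76), Cemip (0.71), Ndst3 (0.71), Dynlt3 (0.70) and Esyt3 (0.70). The receptors themselves were less alike: the correlation was 0.67 for Oprk1 with Oprm1, 0.26 for Oprm1 with Oprd1 and -0.10 for Oprk1 with Oprd1. All clusters come from the same 40 libraries and differ in depth, so these are descriptions.

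In single nuclei a UMI of a receptor was found in a minority of nuclei even where it was highest. An Oprk1 UMI was present in 36.9% of D1-like nuclei (exact 95% interval 36.4% to 37.4%), 26.5% of D2-like nuclei and 17.8% of eccentric-like nuclei. In astrocyte-like nuclei, given as the background, the share was 0.474%, at a median of 780 UMIs against 2101 in D1-like nuclei. Thinning to 1000 UMIs left out nuclei with fewer. It kept 29872 of 30907 D1-like nuclei, but only 3385 of 18134 astrocyte-like nuclei. After thinning the shares were 19.9%, 14.2%, 11.7% and, in astrocyte-like nuclei, 0.798%. The intervals cover counting error only. For cholinergic interneuron-like nuclei (693 of 1038 kept) the thinned share was 0.433%, which is at the background level.

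Oprm1 UMIs were present in 22.5% of D1-like, 26.8% of D2-like, 31.0% of eccentric-like and 36.4% of cholinergic interneuron-like nuclei, or 12.6%, 15.0%, 22.5% and 23.2% after thinning, against 0.532% of thinned astrocyte-like nuclei. Oprd1 UMIs were present in 34.5% of cholinergic interneuron-like nuclei (exact 95% interval 31.6% to 37.5%), 21.0% of the Kcnc2, Sst and Pvalb cluster, 13.1% of D2-like and 0.482% of D1-like nuclei. After thinning these shares were 21.6%, 11.0%, 6.56% and 0.244%, against 0.118% of astrocyte-like and 0.152% of mature oligodendrocyte-like nuclei. Such shares depend on the depth as well as on the level, and a nucleus without a UMI is not shown to lack the receptor.

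Co-detection with the dopamine receptors was counted in the 3 spiny classes together, at 1000 UMIs per nucleus, and so without use of the D1-like and D2-like names. Of the thinned nuclei 25010 held a UMI of DRD1A only, 8206 of DRD2 only, 272 of both and 36945 of neither. Thinning left out 4.68% (female peer) to 8.53% (male mate) of the spiny nuclei of a group. Oprk1 was found in 18.5% ± 3.73 (SD, n = 39 animals) of nuclei with DRD1A only and in 14.5% ± 3.82 of nuclei with DRD2 only. The difference of 3.94 ± 3.69 percentage points (SD) was positive in 35 of 39 animals (sign-flip permutation test, adjusted p 1.5e-05 over 3 receptors, from the smallest p that 100000 resamples can give).

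Oprd1 went the other way. It was found in 0.422% ± 0.352 of nuclei with DRD1A only and 6.32% ± 1.92 of nuclei with DRD2 only, lower with DRD1A in 39 of 39 animals (difference -5.90 ± 1.91 points, adjusted p 1.5e-05). Oprm1 was found in 15.7% ± 4.05 and 15.6% ± 4.40, a difference of 0.0979 ± 3.24 points that did not pass the test (higher with DRD1A in 21 of 39 animals, adjusted p 0.850). Without thinning this difference was -1.74 ± 4.80 points with an adjusted p of 0.0403 (n = 40).

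The value for Oprm1 with DRD1A combines classes that differ. Among nuclei with DRD1A only, Oprm1 was found in 12.6% ± 3.23 of D1-like and 23.1% ± 6.63 of eccentric-like nuclei (n = 39). Among D2-like nuclei with DRD2 only it was found in 15.6% ± 4.50. For Oprk1 the corresponding shares were 20.6% ± 4.34, 12.6% ± 4.10 and 14.6% ± 3.89. Nuclei with a UMI of neither DRD1A nor DRD2 are given beside these, with no test. In D1-like nuclei with neither, Oprk1 was found in 19.7% ± 3.71 and Oprm1 in 12.6% ± 3.83, and in D2-like nuclei in 14.2% ± 2.94 and 15.1% ± 3.52. In eccentric-like nuclei with neither, the shares were 9.85% ± 3.44 for Oprk1 and 21.9% ± 7.29 for Oprm1.

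Nuclei with both DRD1A and DRD2 were few, and only 1 animal had 20 of them after thinning, so they were not tested at that depth. Pooled over animals, 38 of the 272 held Oprk1 (14.0%, exact 95% interval 10.1% to 18.7%), 37 held Oprm1 (13.6%) and 10 held Oprd1 (3.68%, 1.78% to 6.66%). The 10 were not spread evenly over the classes: Oprd1 was found in 0 of 93 such D1-like nuclei (exact 95% interval up to 3.89%), 9 of 147 D2-like nuclei (6.12%, 2.84% to 11.3%) and 1 of 32 eccentric-like nuclei, where D2-like nuclei with DRD2 only held it in 6.21%. Without thinning, 25 animals had enough, and over the 3 classes together Oprd1 was found in 8.19% ± 3.78 of nuclei with both. This was 7.35 ± 3.67 points above nuclei with DRD1A only, and higher in 25 of 25 animals. It was 5.45 ± 4.13 points below nuclei with DRD2 only, with 3 of 25 animals above. Both differences passed (sign-flip permutation test, adjusted p 2.25e-05 for both, 9 tests). The value lies between the others and joins classes high and low in Oprd1.

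Co-detection of the receptors with each other was weak at equal depth. In the 3 spiny classes together, Oprm1 was found in 16.2% ± 5.37 of nuclei with Oprk1 and 15.5% ± 3.59 of nuclei without it (difference 0.606 ± 3.51 points, 23 of 39 animals, adjusted p 0.461 over 8 tests). Within eccentric-like nuclei it was found in 26.5% ± 10.4 of nuclei with Oprk1 and 21.9% ± 6.38 without, higher with Oprk1 in 23 of 32 animals (difference 4.61 ± 7.15 points, adjusted p 0.00428). Within D2-like nuclei Oprk1 was found in 19.2% ± 8.03 of nuclei with Oprd1 and 14.1% ± 3.18 without, higher in 27 of 35 animals (difference 5.09 ± 7.56 points, adjusted p 0.00280). The D2-like class joins a cluster high in both Oprk1 and Oprd1 and one low in both (given above), and this was not tested within single clusters. The other 5 tests had adjusted p of 0.110 to 0.990. In all, 1770 thinned spiny nuclei held both Oprk1 and Oprm1, 365 both Oprk1 and Oprd1, and 290 both Oprm1 and Oprd1.

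Pairing type was compared next, the question being whether receptor levels differ between animals living with a mate and with a peer, in both sexes. No receptor was called in any comparison of the groups. Over all nuclei Oprk1 was at 62.8 to 160 CPM (median 107) in the 18 peers and 79.2 to 171 CPM (median 102) in the 22 mates, Oprm1 at 67.1 to 193 (median 111) and 64.2 to 168 CPM (median 94.6), and Oprd1 at 16.4 to 36.6 (median 25.0) and 19.7 to 34.5 CPM (median 28.4). The ranges of mates and peers overlap for all 3 receptors. The log2 differences, mate minus peer, were 0.06 (SE 0.11) for Oprk1, -0.09 (SE 0.11) for Oprm1 and 0.15 (SE 0.08) for Oprd1, with edgeR adjusted p of 0.893, 0.841 and 0.714. Their 95% intervals allow a ratio of mates to peers between 0.899 and 1.21 for Oprk1, 0.809 and 1.10 for Oprm1, and 0.985 and 1.24 for Oprd1.

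Within classes the receptors were tested wherever they passed the filter on low counts, which held in 5 of 16 classes for Oprk1, 7 for Oprm1 and 4 for Oprd1. Each was compared by pairing, by sex, by the difference of the pairing effect between the sexes, and by pairing within each sex. Of these 80 tests edgeR called 0 and DESeq2 called 0, with smallest adjusted p of 0.129 and 0.121. At an unadjusted p under 0.05 there were 11 tests by edgeR (13.8%) and 11 by DESeq2, where 4.40% of all gene tests in the same classes and comparisons were. The 80 tests share animals and contrasts and are not independent. Over all nuclei 0 of 15 tests were called by either tool, with 0 at an unadjusted p under 0.05 in both.

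Of the 45 comparisons of groups that held a receptor, 37 had no gene called at all (0% of genes). The other 8 were the comparisons of sex, in which 1 to 3 genes were called and no receptor was among them. The share of genes called there was 0.0219% over all nuclei, 0.0279% in D1-like, 0.0190% in D2-like, 0.0213% in eccentric-like and 0.00889% in glutamate neuron-like nuclei. It was 0.0366% in the shallow spiny cluster, 0.0141% in the Kcnc2, Sst and Pvalb cluster and 0.0287% in the Vip, Crabp1 and Kit cluster.

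Oprm1 had lower means in mates than in peers in all 3 spiny classes, with no call. In D2-like nuclei it was at 102 to 267 CPM (median 159) in the 22 mates and 100 to 278 CPM (median 201) in the 18 peers, so the groups overlap. The lowest peer value, 100 CPM, was that of female peer 8 alone, and the other 17 peers lay at 136 CPM or more. The log2 difference was -0.24 (SE 0.10, unadjusted p 0.0241, edgeR adjusted p 0.991), with a 95% interval of -0.45 to -0.03. By sex, male mates were at 102, 168 and 267 CPM (lowest, median, highest) and male peers at 136, 213 and 278 CPM. Female mates were at 123, 155 and 234 CPM and female peers at 100, 200 and 207 CPM. In males alone the log2 difference was -0.36 (SE 0.14, unadjusted p 0.0159, edgeR adjusted p 1.000). In females it was -0.13 (SE 0.15, unadjusted edgeR p 0.405), and the difference between the sexes was 0.23 (SE 0.21, unadjusted edgeR p 0.274).

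The same comparison in D1-like nuclei gave 83.8 to 197 CPM (median 134) in mates and 83.8 to 233 CPM (median 148) in peers, a log2 difference of -0.15 (SE 0.11, edgeR adjusted p 0.975). In males the means were 136 and 165 CPM (log2 difference -0.32, SE 0.15, unadjusted p 0.0342, edgeR adjusted p 1.000), and in females 132 CPM in both groups (0.01, SE 0.15). The difference between the sexes had an unadjusted p of 0.129. In eccentric-like nuclei it gave 131 to 423 CPM (median 236) and 161 to 488 CPM (median 283), a difference of -0.19 (SE 0.13, edgeR adjusted p 0.954). The 3 values are not separate evidence, since Oprm1 levels in these classes moved together over animals (given below). In cholinergic interneuron-like nuclei, mates were at 261 ± 92.6 CPM (n = 14) and peers at 250 ± 115 CPM (n = 12), and the fitted log2 difference, averaged over the sexes, was -0.07 (SE 0.18). The sexes had opposite signs there, with no call: female mates and peers had means of 315 and 256 CPM (0.21, SE 0.25) and male mates and peers 188 and 245 CPM (-0.36, SE 0.27), and the difference between the sexes had an unadjusted p of 0.125.

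No difference of Oprk1 by pairing was called. In D1-like nuclei mates were at 162 to 304 CPM (median 222) and peers at 165 to 299 CPM (median 236), and the log2 difference of -0.06 (SE 0.08, edgeR adjusted p 0.994) has a 95% interval of -0.22 to 0.10. It was -0.16 (SE 0.12) in females and 0.03 (SE 0.11) in males, and the difference between the sexes was -0.19 (SE 0.16, unadjusted edgeR p 0.236). In eccentric-like nuclei the difference by pairing was -0.00 (SE 0.11) and in D2-like nuclei -0.07 (SE 0.09), both also averages of opposite signs in the sexes. In eccentric-like nuclei it was -0.17 (SE 0.17) in females and 0.16 (SE 0.16) in males, and the difference between the sexes was -0.34 (SE 0.23, unadjusted p 0.150). In D2-like nuclei female mates and peers had means of 140 and 163 CPM (log2 difference -0.24, SE 0.13, unadjusted p 0.0581), and male mates and peers 182 and 168 CPM (0.11, SE 0.12). The difference between the sexes there was -0.35 (SE 0.17, unadjusted p 0.0459, edgeR adjusted p 1.000), which was no call. By sex, Oprk1 in D2-like nuclei was at 108 to 203 CPM (median 147) in the 19 females and 110 to 238 CPM (median 176) in the 21 males, a log2 difference of -0.22 (SE 0.09, unadjusted p 0.0144, edgeR adjusted p 0.811). In the shallow spiny cluster the sex difference was -0.32 (SE 0.13, unadjusted p 0.0156, edgeR adjusted p 0.129), the smallest adjusted p of any receptor. In that comparison 1252 of 5468 genes (22.9%) had an unadjusted p under 0.05, and mitochondrial genes (ND4L, ND2, ND5, ND4 and ATP6) are among the cluster's leading genes; their part in the difference was not tested.

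Oprd1 in D2-like nuclei was at 41.0 to 93.1 CPM (median 68.2) in mates and 50.0 to 82.4 CPM (median 61.5) in peers, a log2 difference of 0.06 (SE 0.08, edgeR adjusted p 0.992). In cholinergic interneuron-like nuclei mates were at 238 ± 79.0 CPM (n = 14) and peers at 223 ± 107 CPM (n = 12), a log2 difference of 0.11 (SE 0.19, edgeR adjusted p 0.986). The 95% interval there is wide, with ratios from 0.832 to 1.40. In the Kcnc2, Sst and Pvalb cluster the difference was -0.14 (SE 0.12, edgeR adjusted p 0.865). In glutamate neuron-like nuclei it was 0.28 (SE 0.13, unadjusted p 0.0391, edgeR adjusted p 0.886).

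The other tests below 0.05 before adjustment were in interneurons. Oprm1 in the Vip, Crabp1 and Kit cluster was at 0 to 125 CPM (median 45.3) in female mates and 56.1 to 254 CPM (median 95.9) in female peers (log2 difference -0.79, SE 0.27, unadjusted p 0.00539, edgeR adjusted p 1.000). Male mates were at 42.5 to 142 CPM (median 78.6) and male peers at 40.0 to 166 CPM (median 66.0; log2 difference 0.06, SE 0.25), and the difference between the sexes was -0.86 (SE 0.37, unadjusted p 0.0239, edgeR adjusted p 1.000). The cluster joins Vip-led and Crabp1-led nuclei, which differ in Oprm1, and the part of their mix in these values was not tested. In cholinergic interneuron-like nuclei Oprm1 and Oprd1 had higher means in the 14 females (290 ± 102 and 262 ± 101 CPM) than in the 12 males (217 ± 89.4 and 195 ± 65.4 CPM). The log2 differences were 0.39 (SE 0.18) and 0.41 (SE 0.19), with an edgeR adjusted p of 0.998 for both.

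**Figure D3:**
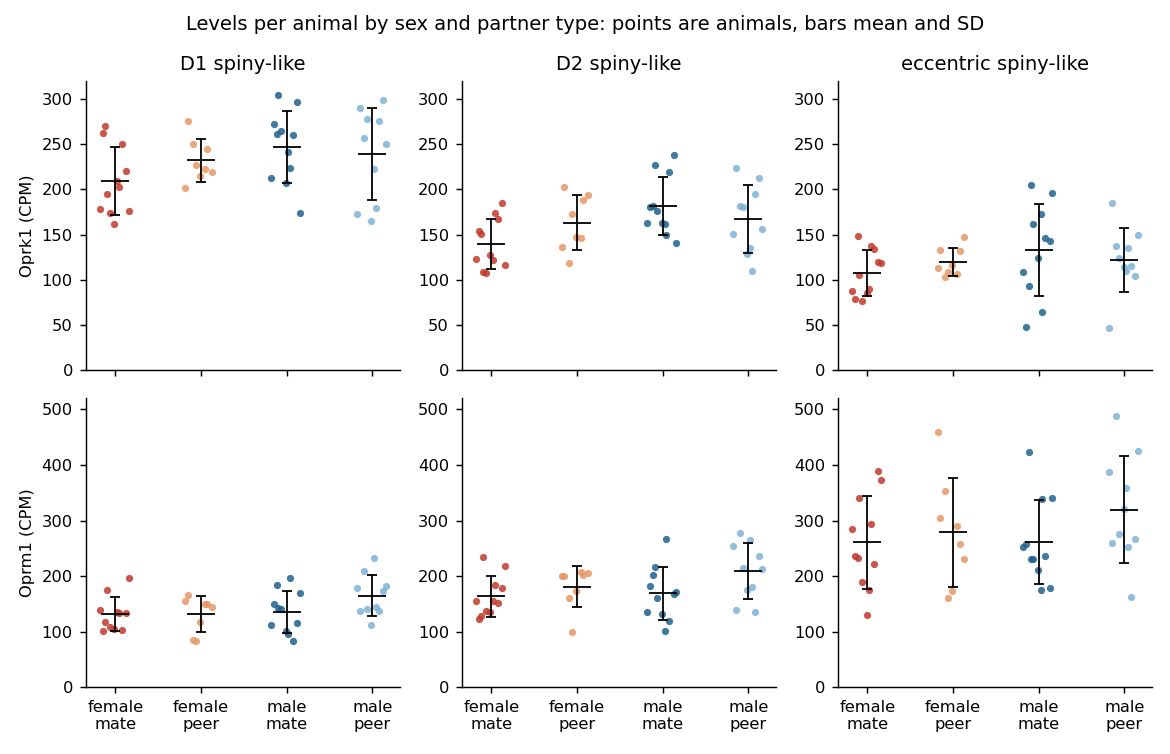
Oprk1 and Oprm1 levels (CPM, linear axes) per animal in the 3 spiny classes by sex and partner type; points are animals, bars mean and SD. The groups overlap in every panel, and the D2-like Oprm1 medians run from 155 CPM in female mates to 213 CPM in male peers.

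**Figure D4:**
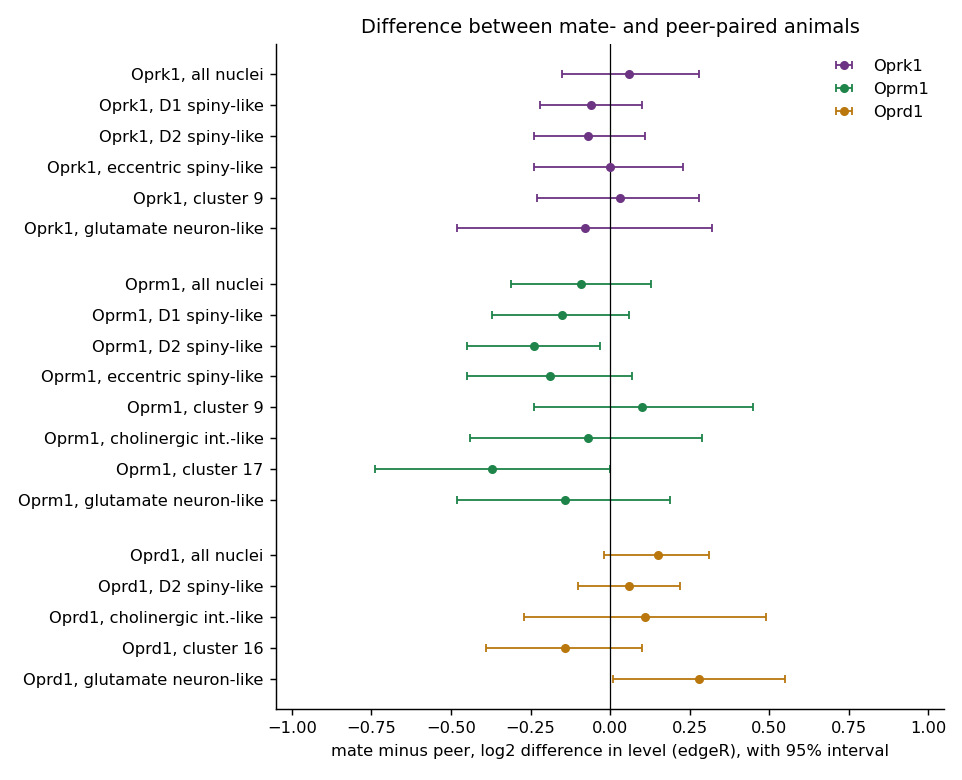
Log2 difference in level between mates and peers, averaged over the sexes, for each receptor over all nuclei and in each class where it passed the filter; points are edgeR estimates and bars 95% intervals. Intervals of Oprm1 in D2-like nuclei (-0.45 to -0.03) and of Oprd1 in glutamate neuron-like nuclei (0.01 to 0.55) leave out 0 before adjustment for the number of genes tested, and neither was called.

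The other genes of opioid signalling were taken from a list of 46, of which 40 were found in the files. The list holds ligands, the related receptor Oprl1, peptide processing enzymes, receptor kinases and arrestins, G proteins, their regulators, effectors and peptide-degrading enzymes. For mate minus peer over all nuclei, 0 of 38 list genes tested were called, 1 had an unadjusted p under 0.05, and the median log2 difference was 0.02. Among all genes there, 0 of 13710 were called and 6.91% had an unadjusted edgeR p under 0.05. In D1-like nuclei 0 of 34, in D2-like nuclei 0 of 32 and in eccentric-like nuclei 0 of 32 were called. Among all genes 0 of 10767, 0 of 10512 and 0 of 9405 were called in these classes. Over all classes and comparisons edgeR called 0.00483% and DESeq2 0.0115% of all gene tests. Of the 1785 tests of list genes edgeR called 0 (105, or 5.88%, at an unadjusted p under 0.05, where 4.52% of all gene tests in the same classes and comparisons were). DESeq2 called 2 (93, or 5.21%, unadjusted, against 4.15% of all gene tests), both Adcy5, an adenylyl cyclase of striatal neurons, higher in mates in an unnamed cluster whose leading genes belong to cilia, with Gfap, over both sexes and in females (edgeR adjusted p 0.0904 and 0.0548). In that cluster DESeq2 called 0.396% of 2271 genes over both sexes and 0.132% in females, and 12.5% and 10.3% had an unadjusted p under 0.05.

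Transcripts of spiny neurons were also counted in classes that are not spiny neurons, and there they too had higher means in mates in several classes. Of the 10 listed markers of any medium spiny neuron, among them Adcy5, 9 were found in the files, and none was at 0 over any of these classes. The number with a higher mean in mates ran from 4 of 9, in the Kcnc2, Sst and Pvalb cluster, to 9 of 9. All 9 had higher means in mates in the cilia cluster, where their summed level was 1168 to 4894 CPM (median 2524) in 21 mates and 683 to 5912 CPM (median 1633) in 15 peers. The same held for all 9 in microglia-like nuclei (451 to 6457 CPM, median 1088, in 22 mates; 156 to 3560 CPM, median 578, in 17 peers) and in mature oligodendrocyte-like nuclei (medians 747 and 514 CPM). Oprk1 in microglia-like nuclei, with 35 UMIs in all, was at 0 to 125 CPM (median 16.4) in mates and 0 to 20.1 CPM (median 0) in peers. It did not pass the filter on low counts, and with no filter the log2 difference had an unadjusted p of 7.92e-05 and an edgeR adjusted p of 0.231. The part of the spiny neuron transcripts in the Adcy5 and microglia-like Oprk1 values was not tested.

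Between the classes, ligand genes are given by level only, as they took part in the clustering. Between groups they were tested with the list, and none was called; Penk, picked out after its values were seen, had a log2 difference, mate minus peer, of 0.41 (SE 0.16, unadjusted p 0.0144, edgeR adjusted p 0.975) in D1-like nuclei. In cholinergic interneuron-like nuclei its difference between the sexes in that effect was 2.55 (SE 0.65, unadjusted p 2.48e-04, edgeR adjusted p 0.620). Penk was also higher in mates in mature oligodendrocyte-like (0.55) and oligodendrocyte precursor-like nuclei (0.50) and the Kcnc2, Sst and Pvalb cluster (0.60). These were picked by their low unadjusted p, none was called, and other classes are not given. In D1-like (134 ± 56.4 CPM) and cholinergic interneuron-like nuclei (166 ± 142 CPM) its level was near the astrocyte-like one (168 ± 69.2 CPM). The part of spiny neuron transcripts in these differences was not tested. Pdyn was at 645 ± 162 CPM in D1-like, 97.6 ± 37.2 CPM in eccentric-like and 13.9 ± 7.32 CPM in D2-like nuclei (n = 40). Penk was at 5707 ± 1325 CPM in D2-like, 3397 ± 1238 CPM in eccentric-like and 134 ± 56.4 CPM in D1-like nuclei. Of the 3 spiny classes the D1-like one thus held the highest levels of Pdyn and of Oprk1, the D2-like one those of Penk and Oprd1, and the eccentric-like one that of Oprm1. Single clusters did not all follow their class. Oprk1 was highest in the Col24a1-led D1-like cluster (298 ± 51.1 CPM), whose leading genes do not include Pdyn. The D1-like clusters with Pdyn among theirs held 214 ± 44.2 (Reln-led), 154 ± 57.5 (Npas4-led) and 127 ± 45.6 CPM (Dlk1-led). Oprm1 was highest in the Dlk1-led D1-like cluster (349 ± 89.4 CPM) at a resolution of 1. Pdyn levels of single clusters are not given here. Oprl1, the nociceptin receptor, was at 72.7 ± 13.0 CPM in eccentric-like, 27.9 ± 6.46 CPM in D1-like and 26.1 ± 9.76 CPM in D2-like nuclei.

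For Oprk1 and Oprm1, an animal's level in one spiny class went with its level in another. The coefficient of variation of Oprm1 over animals was 25.5% in D1-like nuclei, where counting error alone gives 7.42%, and 25.3% in D2-like nuclei (counting 7.17%). For Oprk1 in D1-like nuclei it was 17.7% (counting 5.79%), and for Oprd1 18.3% in D2-like nuclei (counting 11.9%) and 74.8% in D1-like nuclei (counting 60.9%). No other genes were set beside these values, so whether such a spread is particular to the receptors was not tested. Over the 40 animals Oprm1 in D1-like and D2-like nuclei had a Pearson r of 0.87 and a Spearman rho of 0.87 (permutation p 1e-05 each, the smallest that can be given; adjusted p 3.75e-05 and 5e-05 over 15 relations). The r was 0.84 without the 2 animals farthest from the median, 0.83 to 0.90 within the 4 groups, and 0.83 to 0.92 within blocks of 10 consecutive label numbers, whose meaning the labels do not give. The classes of an animal share their library and its dissection, and the part of these in the relation was not tested.

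Oprm1 in eccentric-like nuclei also went with that in D1-like (r 0.67, rho 0.67) and D2-like nuclei (r 0.68, rho 0.67). Within groups the lowest values of these r were 0.37 and 0.46, both in the 8 female peers. For Oprk1, D1-like and D2-like levels had r 0.79 and rho 0.76, with 0.41 to 0.89 within groups and 0.45 to 0.96 within blocks of label numbers. The relation of Oprk1 between D1-like and eccentric-like nuclei did not pass after adjustment (r 0.33, permutation p 0.0405, adjusted p 0.0760; rho 0.32), while that between D2-like and eccentric-like nuclei did (r 0.42, permutation p 0.00736, adjusted p 0.0221; rho 0.45), with r 0.32 without the 2 farthest animals, 0.22 to 0.84 within groups and 0.07 to 0.57 within blocks of label numbers.

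No relation of Oprk1 with Oprm1 between animals passed the test. Their r was -0.03 in D1-like, -0.01 in D2-like and -0.08 in eccentric-like nuclei, with permutation p of 0.873, 0.926 and 0.633. Within groups it ran from -0.40 to 0.07 in D1-like, -0.19 to 0.16 in D2-like and -0.35 to 0.39 in eccentric-like nuclei. Within blocks of label numbers it ran from -0.65 to 0.23 in eccentric-like nuclei. The median UMI count per nucleus had an r of -0.21 with Oprm1 in D1-like and -0.18 in D2-like nuclei (permutation p 0.198 and 0.255). With Oprk1 its r was 0.16 and 0.28 (permutation p 0.337 and 0.0733). Within blocks of label numbers there was no common sign. The r ran from -0.79 to 0.24 for Oprm1 in D1-like and from -0.40 to 0.65 for Oprk1 in D2-like nuclei. The Nts-led cluster of the finer clustering is rich in Oprm1. Its nuclei numbered 12.1% to 58.2% of the count of D2-like nuclei in the main clustering. This is a ratio of 2 clusterings, and their overlap was not counted. The ratio had an r of -0.41 with D2-like Oprm1 (permutation p 0.00904, adjusted p 0.0226, and rho -0.36, adjusted p 0.0531). The r was -0.29 without the 2 farthest animals. D2-like Oprk1 had a similar r with that ratio, -0.37 (permutation p 0.0198, adjusted p 0.0425, and rho -0.36, adjusted p 0.0531).

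**Figure D5:**
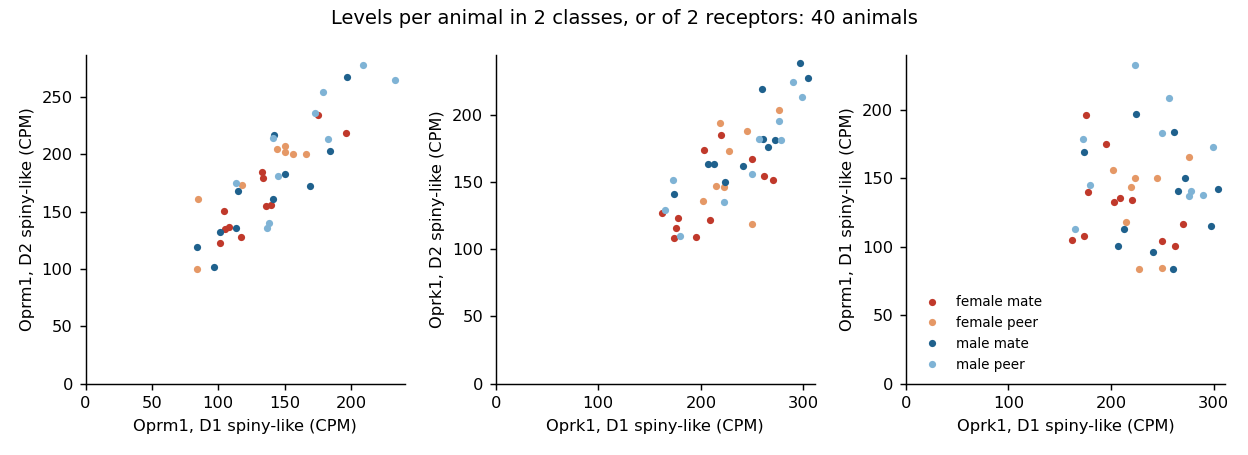
Levels per animal (CPM, linear axes from 0), 40 animals coloured by group: Oprm1 in D1-like against D2-like nuclei, Oprk1 in the same 2 classes, and Oprk1 against Oprm1 within D1-like nuclei. The first 2 panels rise together (r 0.87 and 0.79) and the third does not (r -0.03).

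Over all nuclei the receptor level of an animal also depends on which nuclei its library holds; in such sums fewer cells of a type and less RNA per cell cannot be told apart. Glutamate neuron-like nuclei made up 0.946% of nuclei in the lowest animal (male peer 5) and 44.9% in the highest (male mate 2). Oprk1 over all nuclei fell with that share (r -0.59, permutation p 1e-04, adjusted p 6e-04 over 6 relations; rho -0.65), and r was -0.54 without the 2 farthest animals and -0.51 to -0.90 within the groups. For Oprm1 r was -0.29 (permutation p 0.0728, adjusted p 0.116; rho -0.36, permutation p 0.0228, adjusted p 0.0683) and for Oprd1 -0.22 (permutation p 0.181, adjusted p 0.217; rho -0.22, permutation p 0.163). Within the groups these had no common sign, running from -0.57 to 0.20 for Oprm1 and from -0.83 in female mates to 0.54 in male mates for Oprd1. The latter was 0.35 without male mate 2. Over the 39 animals other than male mate 2, r was -0.33 (permutation p 0.0434) for Oprm1 and -0.39 (permutation p 0.0136) for Oprd1, before adjustment. The rho was -0.39 (permutation p 0.0161) for Oprm1 and -0.31 (permutation p 0.0559) for Oprd1. The labels do not say which animals lived together, and p-values treat the animals as independent. The numbers that open the labels run in consecutive twos, each a female and a male mate or 2 peers of 1 sex, but nothing states that these were partners.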

How the data were processed

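The authors deposited 1 sparse matrix of raw UMI counts per gene and barcode for each of the 40 libraries, made with Cell Ranger 3.1.0 per the submitters' processing notes; the genome build and annotation are not given in the sources used here. Kept were the 185995 of 194518 barcodes with 500 or more UMIs and no more than 5% mitochondrial UMIs, and the 7608 highest doublet scores (4.09%) were removed. After scaling each nucleus to 10000 and taking logs, 2000 variable genes, leaving out the 3 receptors, gave 30 principal components and 32 Leiden clusters over 15 neighbours at a resolution of 1. Clusters took the name of 1 of 18 marker lists (133 of 146 markers were used): 21 clusters in 12 classes, with 85.9% of nuclei. Names are rebuilt from markers and may differ from the study's own.

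Counts were summed per animal and class (at least 20 nuclei) and tested with edgeR 4.0.16 in R 4.3.3 (quasi-likelihood, TMM, its filter on low counts, 1 mean per group, Benjamini-Hochberg over all genes, 0.05), with DESeq2 1.42.0 and limma 3.58.1 as alternatives; a class needed 6 animals per group. CPM per animal are UMIs per 1000000 UMIs of the class. Steps between neighbouring levels used log2(CPM + 10) and sign-flip permutation tests (two-sided, 100000 resamples), as did shares with nuclei thinned to 1000 UMIs. The statistical scripts were tested on simulated data. The receptors, the 46 signalling genes and the named genes (5 most alike per receptor, and any listed gene called) were chosen with earlier results of these data known.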

Additional observations from a re-analysis of the deposited data

Results flagged for a closer look

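In 42 sets of receptor levels, each 1 receptor in 1 class and 1 group of up to 10 animals, 4 held an animal far from the others of its group. Chance gives about 1 in 20 sets. Each mate group has 11 animals, so mates were looked at only in classes where fewer of them were kept. All 4 sets were of peers.

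Oprm1 in D2-like nuclei of female peer 8 was at 100 CPM (187 UMIs in 636 nuclei), while the other female peers lay between 161 and 207 CPM. This was the lowest of the 8 animals. The other sets rest on few nuclei. Oprd1 in the Kcnc2, Sst and Pvalb cluster was at 0 CPM in male peer 5 (53 nuclei), next to 95.2 to 168 CPM in the other male peers. Oprm1 in glutamate neuron-like nuclei of the same animal was at 80.6 CPM (5 UMIs in 41 nuclei; nearest 45.8 CPM). Oprm1 in the Vip, Crabp1 and Kit cluster of female peer 1 was at 254 CPM (15 UMIs in 23 nuclei; nearest 107 CPM).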

How the results depend on the processing

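Of 361 values recomputed under other settings, 337 kept their direction and their side of the threshold. All 8 differences of the receptors between spiny classes did so under every alternative run. Without the animal block (no replicate block), 1288 genes were called between D1-like and D2-like nuclei in place of 3076. No paired analysis was possible by replicate number because these numbers were given in accession order and pair no animals; a block of 2 consecutive label numbers, whose meaning the labels do not give, was tried instead.

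Some settings held fewer tests within classes than the 80 of the main one: 70 without male mate 2, 70 with at least 1000 UMIs and 65 at a resolution of 2. No receptor was called between groups with doublets kept, without male mate 2, with blocks of 10 label numbers, with nuclei of at least 1000 UMIs, at a resolution of 2, in single clusters or by DESeq2. The same held with 2 consecutive label numbers as a random block, a setting chosen after seeing the data (limma, 0 of 15 tests over all nuclei and 0 of 80 within classes called, estimated correlation 0.020 to 0.178 over classes and all nuclei). With no filter on low counts 1 of 240 tests within classes was called, Oprm1 in the cluster led by genes of cilia, lower in females (log2 difference -2.64, edgeR adjusted p 0.0197), where 0.0942% of 14861 genes were; it rests on 51 UMIs, 21 of them from male mate 2 (205 CPM), and the 8 female peers were at 0. Mate minus peer differences near 0 changed sign: Oprk1 in the shallow spiny cluster was -0.01 with doublets kept. In eccentric-like nuclei Oprk1 was 0.00 with no filter and at a resolution of 2, 0.01 with doublets kept and without male mate 2, 0.03 with label blocks and 0.04 with at least 1000 UMIs. In glutamate neuron-like nuclei Oprk1 was 0.05 with blocks of 10 label numbers and 0.03 with blocks of 2, and cholinergic Oprm1 was 0.04 with blocks of 2.

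At a resolution of 2 only 3 steps passed in the order of each of Oprk1 and Oprm1, over 20 steps. Oprm1 with DRD1A only minus DRD2 only was -1.74 points without thinning and -0.190 points with at least 2 UMIs of DRD1A or DRD2. Among pairs of receptors, the difference with minus without Oprk1 for Oprm1 was 1.39 points without thinning (adjusted p 0.0314); with and without Oprd1 it was 0.569 (500 UMIs) and 2.39 points (no thinning) for Oprm1, and -0.00288 and 6.91 points for Oprk1. The cause of these changes was not tested. Without male mate 2 the correlations with the glutamate neuron-like share were -0.33 for Oprm1 and -0.39 for Oprd1. With a pseudocount of 1 CPM the step of Oprd1 from the shallow cluster to glutamate neuron-like nuclei did not pass (0.40, adjusted p 0.112). Depth limits Oprd1 in D1-like nuclei, at a median of 3 UMIs per animal, and in astrocyte-like nuclei, with 13 UMIs in all.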
